A study of Mus musculus with 18 samples.

Results

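Serotonin receptors are the membrane proteins through which neurons and some other brain cells sense serotonin, and 10 of their genes were followed here across the mouse brain. The 10 genes were Htr1a, Htr1b, Htr1d, Htr1f, Htr2a, Htr2c, Htr4, Htr5a, Htr6 and Htr7. They were taken by symbol from the 53468 genes of the count table, with symbols paired to Ensembl identifiers through GENCODE M21. No cut on measured values was used, but earlier results of these data were known when the genes were chosen. RNA came from dissected forebrain, midbrain and hindbrain of 6 mice of 1 litter at postnatal day 25, 3 of them wild type (WT) and 3 carrying Fmr1CRE, so each of the 6 groups held 3 libraries and each mouse gave 1 library per region. Fmr1CRE is a single-base change in a regulatory element assigned to Fmr1, placed in the mouse genome by CRISPR/Cas9 on a C57BL/6 background; several independent lines were made, and the sources used here do not give the line or the sex of the sequenced animals. The study asked whether rare regulatory variants on the X chromosome could cause intellectual disability. It used RNA sequencing at this age to compare Fmr1 between genotypes and reported no difference in the 3 regions.

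Serotonin is made by a small set of neurons in the raphe nuclei of the midbrain and hindbrain, whose axons reach almost the whole brain. Most of its receptors are G protein-coupled: the Htr1 group and Htr5a act mainly through Gi/o and lower cyclic AMP, the Htr2 group acts through Gq and phospholipase C, and Htr4, Htr6 and Htr7 act through Gs and raise cyclic AMP. Htr3a and Htr3b differ from all of these, since they form an ion channel. Htr1a and Htr1b are known both as receptors on target neurons and as autoreceptors on the serotonin neurons themselves, on the cell body and the axon respectively.

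The libraries held between 22455512 and 28061185 counts, and a receptor was counted from 13 times (Htr6, WT replicate 3 of the hindbrain) to 2735 times (Htr2c, Fmr1CRE replicate 3 of the midbrain) in a library. Levels between libraries are given as counts per 1000000 reads scaled by the trimmed mean of M values (CPM). Tissue markers placed the libraries by region: a list of 12 hindbrain markers summed to 0.22 to 4.81 CPM in forebrain, 48.9 to 124 in midbrain and 364 to 528 in hindbrain, and 10 midbrain markers to 3.79 to 21.6, 75.2 to 134 and 32.1 to 56.1. The midbrain samples also carried forebrain tissue, with 10 forebrain markers at 233 to 383 CPM there, 398 to 557 in forebrain and 12.4 to 18.5 in hindbrain. A list of 10 cerebellar granule markers summed to 391 to 827 CPM in midbrain, 153 to 216 in forebrain and 872 to 1797 in hindbrain. Gabra6, 1 of that list, was at 33.3 to 93.9 CPM in midbrain and 0 to 4.48 in forebrain. The part of such tissue in the midbrain receptor levels was not tested. Fmr1 itself was at 69.2 to 83.4 CPM in WT forebrain and 74.1 to 78.8 in Fmr1CRE forebrain, and the genotypes overlapped in midbrain and hindbrain too, so its level was no check of the genotype labels. Of 47 genes that differed by at least 1 on the log2 scale, in the same direction, between the mice labelled replicate 3 in both midbrain and hindbrain, 35 ran the opposite way in forebrain, against 24 of 57 for replicate 1 and 26 of 53 for replicate 2; this limit was chosen after the values were seen. Whether labels were exchanged was not tested. Counts of called receptors, and some single values that rest on these labels, are also given without both mice.

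The receptor genes are built in different ways, which bears on how a 50-base read can be assigned. Htr1a, Htr1b, Htr1d and Htr1f each have their coding sequence in 1 exon. Htr2c spans 235 kb of chromosome X (146962513 to 147197277, plus strand, GRCm38), has 7 annotated transcripts and holds 5 microRNA genes within its span. Over the transcript estimates of all 18 libraries together, 79.2% of the Htr2c reads were assigned to Htr2c-201, the form with the full coding sequence of 1377 bases, and 19.3% to Htr2c-207, which ends an internal coding exon early and is left with 516 coding bases. The share of Htr2c-207 ran from 5.35% to 38.9% across the 18 sets, which were not split by region or genotype. The stretch of that exon that Htr2c-207 lacks lies at chrX:147169676-147169770 on the plus strand; it is shown in capitals with 15 bases of Htr2c-201 on each side.
Htr2c-201: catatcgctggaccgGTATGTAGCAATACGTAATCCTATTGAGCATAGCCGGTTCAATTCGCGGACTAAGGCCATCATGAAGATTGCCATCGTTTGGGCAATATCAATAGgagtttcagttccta
This part of the transcript is known for alternative splicing and for adenosine-to-inosine editing, neither of which the gene counts resolve. Adar and Adarb1, which encode the editing enzymes, are among the partner genes described further on.

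Htr7 had the most divided transcript estimates of the other receptors. Over all libraries 56.7% of its reads went to Htr7-202, 26.8% to Htr7-204, which is annotated as a target of nonsense-mediated decay, 10.9% to Htr7-205 and 1.38% to Htr7-201. The 3 stretches that set these forms apart from Htr7-202 are shown in capitals, all on the minus strand of chromosome 19: an exon of Htr7-204 at chr19:36041555-36041612, 5 bases that Htr7-205 adds at the end of an exon at chr19:35969304-35969308, and an exon of Htr7-201 at chr19:35964381-35964477.
Htr7-204: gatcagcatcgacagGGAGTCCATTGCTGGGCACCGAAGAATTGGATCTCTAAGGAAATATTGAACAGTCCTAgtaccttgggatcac
Htr7-205: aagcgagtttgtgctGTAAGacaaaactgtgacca
Htr7-201: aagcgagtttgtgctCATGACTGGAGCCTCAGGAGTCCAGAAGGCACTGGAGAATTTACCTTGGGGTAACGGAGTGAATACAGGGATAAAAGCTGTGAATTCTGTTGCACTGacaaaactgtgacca
Htr7-205 and Htr7-201 share their flanking bases and differ in what is inserted between them, at the end of the receptor known to vary between its splice forms. The deposited gene counts add all forms of a gene together, and every value that follows is for the whole gene.

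RefSeq promoter windows of GRCm38.p6 were at hand for 9 of the 10 genes. In the 250 bases before the annotated start, the median over 32851 windows of all genes was 6 CpG dinucleotides, with quartiles of 2 and 16. Htr2a had the fewest of the receptors, 4, and Htr7 the most, 41, more than 98.9% of all windows. No relation between these letters and the levels was tested.

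Htr2c was the most abundant serotonin receptor transcript in every region. To compare genes with each other, the counts were divided by transcript length and scaled to a total of 1000000 in every library (TPM); on that scale Htr2c had a median of 6.42 TPM in forebrain (2.91 to 8.41 over 6 libraries), 12.6 in midbrain (11.4 to 15.05) and 8.18 in hindbrain (7.41 to 12.4). Htr2c made up a median of 36.5% of the summed TPM of the 10 receptors in forebrain, 49.8% in midbrain and 56.9% in hindbrain. Htr2a was next in forebrain, with a median of 3.24 TPM (1.48 to 3.69), and Htr7 was next in midbrain and hindbrain, with medians of 2.79 TPM (2.32 to 3.16) and 2.09 TPM (1.66 to 2.79).

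The lower end of the order changed from region to region. Htr4 was lowest in forebrain with a median of 0.268 TPM, Htr1d in midbrain with 0.42 TPM and Htr6 in hindbrain with 0.12 TPM. The order depended on the length used: with annotated transcript lengths 16 of the 30 ranks stayed the same, and the largest move was 2. Of the 27 pairs of neighbours in the 3 orders, 5 had ranges that did not overlap: Htr2c over Htr7 in midbrain and in hindbrain, Htr5a over Htr4 in midbrain, and Htr1a over Htr5a and Htr1d over Htr1f in hindbrain. The other neighbours had ranges that overlapped, although in some of these pairs the first gene exceeded the next in 6 of 6 libraries, as for Htr2c over Htr2a and Htr2a over Htr7 in forebrain, Htr7 over Htr1a in midbrain and Htr7 over Htr1b in hindbrain. One very short RNA, Bc1, took 31.4% to 46.5% of all TPM in a library and so moved the TPM of every other gene with it; as CPM per kilobase, a scale chosen after this was seen, 8 of the 27 pairs did not overlap.

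**Figure D1:**
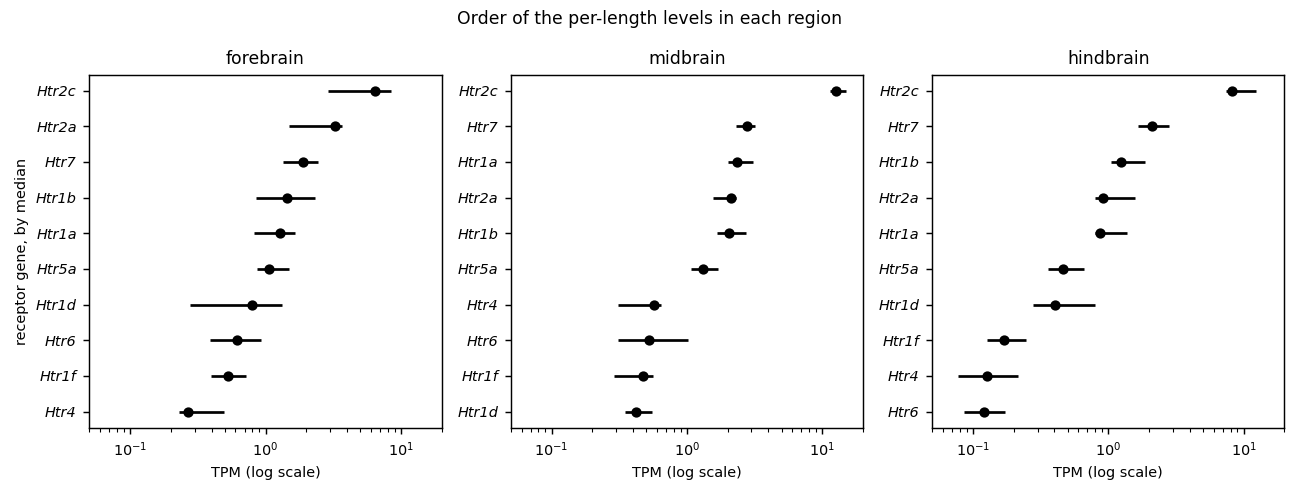
Each panel orders the 10 receptor genes by their per-length level in 1 region, in TPM on a log axis, with the median of 6 libraries as a point and their lowest and highest value as a line. Htr2c is at the top of all 3 panels, and its line is clear of the next gene in midbrain and hindbrain but not in forebrain.

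Forebrain and hindbrain differed for most of the receptors. Tested with edgeR's quasi-likelihood test over all 18 libraries, with p-values adjusted over 20363 genes by the Benjamini-Hochberg method, 7 of the 10 receptor genes were higher in forebrain than in hindbrain, 1 was lower and 2 did not pass an adjusted p of 0.05. Among all genes tested, 51.7% passed in this comparison, 26.4% higher and 25.3% lower in forebrain. A change of at least 2-fold that also passed was found for 5 receptors, all higher in forebrain, against 10.7% of all genes higher and 8.06% lower to that degree. The median log2 fold change was 1.06 over the 10 receptors and -0.01 over all genes tested. In bulk tissue, more cells of a type and more RNA per cell cannot be told apart in any of these values.

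Against hindbrain, midbrain gave the same number of higher receptors. From midbrain to hindbrain 7 receptors passed as higher in midbrain and none as lower, where 49.1% of all genes passed, 25.1% as higher and 24% as lower; 5 of the 7 reached 2-fold, which 8.49% of all genes did in that direction and 6.27% in the other. Between forebrain and midbrain 2 receptors were higher in forebrain, 2 were higher in midbrain and 6 did not pass, where 19.3% of all genes passed, 9.38% and 9.96% in those directions. Without the adjustment, p was under 0.05 for 9 receptors in forebrain against hindbrain (57% of all genes), 7 in forebrain against midbrain (32.6%) and 7 in midbrain against hindbrain (55.1%). The ranges of the 6 libraries did not overlap for 5 receptors higher in forebrain than in hindbrain (14.7% of all genes, with 13% for lower), for 2 lower in forebrain than in midbrain (5.35%, with 5.1% for higher) and for 6 higher in midbrain than in hindbrain (16%, with 10.9% for lower). The 3 regional comparisons share their libraries and are not independent of each other. In Fmr1CRE libraries alone 0 of 10 receptors passed between forebrain and midbrain, where 527 of 19434 genes passed, and 5 passed between forebrain and hindbrain, where 6178 of 19434 genes did. In the latter comparison Htr1a, Htr1d and Htr2c lost their calls, but no receptor passed the test of an interaction between genotype and region described further on.

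**Figure D2:**
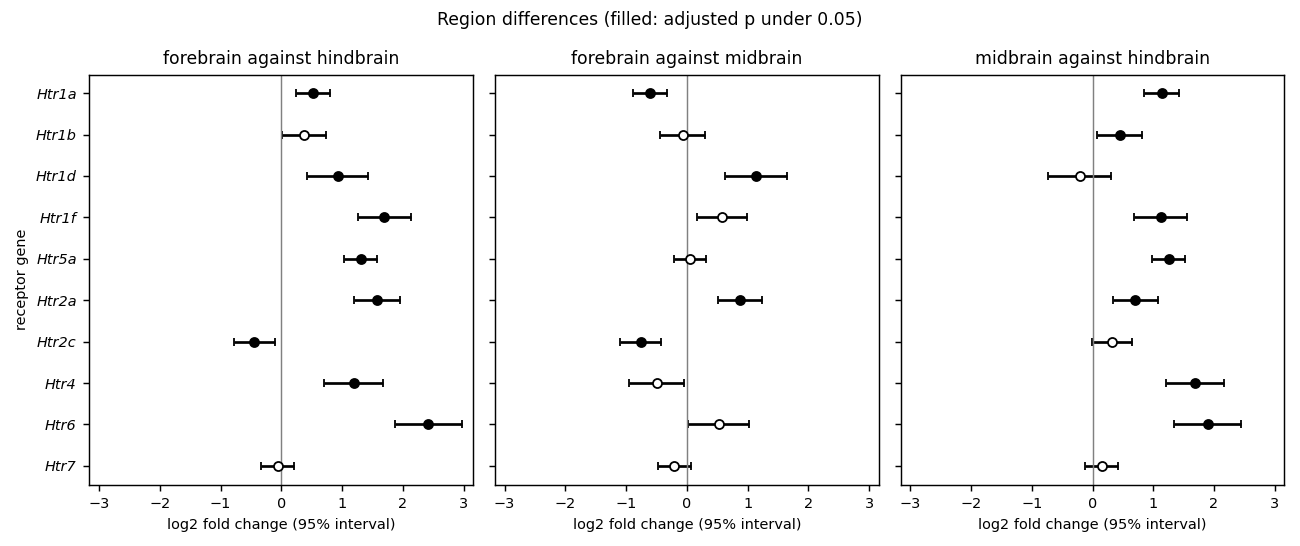
Log2 fold changes of the 10 receptor genes between regions (x axis), averaged over both genotypes, with 95% intervals from edgeR; filled points passed an adjusted p of 0.05. In the panels against hindbrain 7 filled points lie right of 0, and in the forebrain-midbrain panel 2 filled points lie on each side.

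Htr1a, the Gi/o receptor found on serotonin neurons and on hippocampal and cortical neurons, was highest in midbrain. Its CPM over the 6 libraries of a region ran from 19.0 through a median of 21.1 to 24.996 in midbrain, from 9.87 through 14.9 to 18.2 in forebrain and from 8.46 through 9.24 to 11.9 in hindbrain. The midbrain range lay wholly above those of both other regions. Htr1a was 2.20-fold higher in midbrain than in hindbrain (log2 fold change 1.14 ± 0.13 SE, adjusted p = 5.41e-06), and its level in forebrain was lower than in midbrain by a log2 fold change of -0.61 ± 0.13 (adjusted p = 0.00451). Forebrain still exceeded hindbrain, by 0.52 ± 0.13 (adjusted p = 0.00397), with ranges that overlapped, and by 0.33 without Fmr1CRE replicate 3 (adjusted p = 0.0297).

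Htr1b, the axonal autoreceptor that also sits on the terminals of other neurons, varied little between regions. Forebrain values ran from 9.59 through a median of 15.5 to 24.2 CPM, midbrain values from 14.4 through 17.1 to 20.7 and hindbrain values from 10.3 through 12.5 to 15.1. All 3 ranges overlapped, and the forebrain libraries were the most spread. Midbrain passed against hindbrain at 0.44 ± 0.17 (adjusted p = 0.0444), a call that was lost without any 1 of Fmr1CRE replicate 3, WT replicate 1 or WT replicate 2 (adjusted p = 0.112, 0.169 and 0.118) and without both mice of replicate 3 (adjusted p = 0.103). Forebrain against hindbrain was 0.37 ± 0.17 (adjusted p = 0.0838), and 0.52 without Fmr1CRE replicate 1 (adjusted p = 0.0149). Exons of Htr1b overlap the gene D430036J16Rik on the opposite strand, counted 45 to 151 times per library, and the reads of the pair cannot be told apart where strand was not used.

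Htr1d, a presynaptic Gi/o receptor and a target of the triptan drugs, stood out in forebrain. Its values there ran from 1.46 through 4.11 to 5.41 CPM, while midbrain spanned 1.31 to 2.22 around a median of 1.60 and hindbrain 1.25 to 2.99 around 1.90. Only Fmr1CRE replicate 1 brought the forebrain range down into the others; the other 5 forebrain libraries were at 3.19 CPM or more. The gene was 2.20-fold higher in forebrain than in midbrain (log2 fold change 1.14 ± 0.24, adjusted p = 0.00378) and 1.90-fold higher than in hindbrain (0.93 ± 0.24, adjusted p = 0.00406). In Fmr1CRE libraries alone neither difference passed (adjusted p = 0.22 and 0.653).

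Htr1f, another Gi/o receptor, and Htr5a, whose coupling to Gi/o is the best known, both had their lowest levels in hindbrain with no overlap. Htr1f spanned 0.568 to 1.11 CPM in hindbrain, where it was counted 16 to 28 times per library, 1.22 to 2.01 in midbrain and 1.97 to 2.98 in forebrain. It was 3.24-fold higher in forebrain than in hindbrain (1.70 ± 0.21, adjusted p = 3.99e-06). Its forebrain-midbrain difference of 0.57 ± 0.20 missed the threshold (adjusted p = 0.0504) and passed with the mouse as a block (0.59, adjusted p = 0.0213). Htr5a was at 3.93 to 6.64 CPM in hindbrain, 11.5 to 14.5 in midbrain and 11.2 to 15.2 in forebrain. It was 2.48-fold higher in forebrain (1.31 ± 0.13, adjusted p = 3.43e-07) and 2.38-fold higher in midbrain (1.25 ± 0.13, adjusted p = 1.001e-06) than in hindbrain, while forebrain against midbrain was 0.06 with a 95% interval from -0.20 to 0.32.

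Htr2a, the Gq receptor of cortical pyramidal cells through which classical hallucinogens act, fell in steps from forebrain to hindbrain. Forebrain ran from 17.5 through 34.4 to 39.2 CPM, midbrain from 15.7 through 16.7 to 19.6 and hindbrain from 8.70 through 9.32 to 13.9. The hindbrain range lay below both others, and 5 of the 6 forebrain libraries, at 28.4 CPM or more, lay above every midbrain library. Each step passed: forebrain was 2.99-fold higher than hindbrain (1.58 ± 0.18, adjusted p = 1.65e-06) and 1.83-fold higher than midbrain (0.87 ± 0.17, adjusted p = 0.00225), and midbrain was 1.63-fold higher than hindbrain (0.71 ± 0.17, adjusted p = 0.00332).

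Htr2c, the second Gq receptor and one long known from the choroid plexus, was lowest in forebrain and highest in midbrain by its median. Its forebrain values ran from 29.8 through 61.8 to 68.7 CPM, its midbrain values from 84.3 through 96.6 to 110 and its hindbrain values from 68.0 through 72.7 to 93.0. Midbrain lay wholly above forebrain. Forebrain was lower than midbrain by a log2 fold change of -0.76 ± 0.16 (adjusted p = 0.00322), and by -0.59 without Fmr1CRE replicate 1 (adjusted p = 0.00515), the library at 29.8 CPM. Against hindbrain the difference was -0.44 ± 0.16 (adjusted p = 0.0266), and it was lost without both mice of replicate 3 (-0.47, adjusted p = 0.0667) and without any 1 of Fmr1CRE replicate 2, WT replicate 1 or WT replicate 3 (adjusted p = 0.0638, 0.052 and 0.16). It was also lost in WT libraries alone (-0.30, adjusted p = 0.0991) and in Fmr1CRE libraries alone (-0.63, adjusted p = 0.089).

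Choroid plexus markers were compared with Htr2c across regions. A list of 14 such genes summed to 543 to 956 CPM in midbrain, 653 to 1305 in forebrain and 1882 to 4720 in hindbrain. By the test 13 of the 14 were lower in midbrain than in hindbrain, where 24% of all genes were. In forebrain 7 were higher and 1 lower than in midbrain (9.38% and 9.96% of all genes). Between forebrain and hindbrain 9 were lower and none higher in forebrain (25.3% and 26.4% of all genes), the direction of Htr2c. Ttr, the transthyretin gene and the most abundant of the list, was at 152 to 452 CPM in midbrain and 862 to 3148 in hindbrain. The region with the highest median of Htr2c had the lowest median of these markers, and their part in the Htr2c levels was not tested. The 2 genes whose log2 CPM followed Htr2c most closely over the 18 libraries were Tacr3, the neurokinin 3 receptor (Pearson r = 0.967), and Gabrq, the theta subunit of the GABA-A receptor (r = 0.962); with the mean of each region removed both were still at r = 0.939 and 0.938, among libraries that share mice and dissections.

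Of the Gs receptors, Htr4 and Htr6 were lower in hindbrain than in both other regions, and Htr7 passed in no comparison. Htr4, known from hippocampus and basal ganglia, was at 0.741 to 2.02 CPM in hindbrain, 2.57 to 4.85 in midbrain and 2.35 to 4.003 in forebrain, with hindbrain below both other ranges. It was 3.22-fold higher in midbrain than in hindbrain (1.69 ± 0.23, adjusted p = 1.78e-05) and 2.28-fold higher in forebrain (1.19 ± 0.23, adjusted p = 0.00036). Forebrain against midbrain was -0.50 ± 0.22 (adjusted p = 0.12).

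Htr6, the Gs receptor most associated with striatum and with primary cilia, had the widest difference of the family. Forebrain libraries spanned 2.60 to 5.76 CPM with a median of 3.65, midbrain libraries 1.72 to 4.57 with a median of 2.57, and hindbrain libraries 0.514 to 1.03 with a median of 0.688, where it was counted 13 to 29 times per library. Forebrain was 5.35-fold higher than hindbrain (2.42 ± 0.26, adjusted p = 1.08e-06, 95% interval of the fold 3.65 to 7.84) and midbrain 3.73-fold higher (1.90 ± 0.26, adjusted p = 2.16e-05), while forebrain against midbrain was 0.52 ± 0.24 (adjusted p = 0.141). Htr7, a Gs receptor of thalamus, hippocampus and hypothalamus, was by contrast at 10.2 to 16.6 CPM in forebrain, 12.6 to 17.3 in midbrain and 11.3 to 16.5 in hindbrain. All 3 ranges overlapped and no regional comparison passed; the 95% intervals were -0.33 to 0.22 for forebrain against hindbrain, -0.48 to 0.07 for forebrain against midbrain and -0.12 to 0.42 for midbrain against hindbrain.

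The other 4 serotonin receptor genes divided into 2 that were barely present and 2 that were tested. Htr2b and Htr3b had at most 4 and 3 counts in any library and were too low to test. Htr3a, the subunit that forms the serotonin-gated channel and marks a class of cortical interneurons, was 1.96-fold higher in forebrain (0.97 ± 0.18, adjusted p = 0.00033) and 2.19-fold higher in midbrain (1.13 ± 0.18, adjusted p = 0.000107) than in hindbrain. Htr5b, a rodent receptor that is a close relative of Htr5a, went the other way: it was at 2.27 to 5.61 CPM in hindbrain and 0.905 to 1.70 in forebrain, a difference of -1.42 ± 0.20 (adjusted p = 2.35e-05). Htr5b was the only one of the 12 tested receptor genes that passed as higher in hindbrain than in midbrain, by -0.81 ± 0.20 for midbrain against hindbrain (adjusted p = 0.00314).

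**Figure D3:**
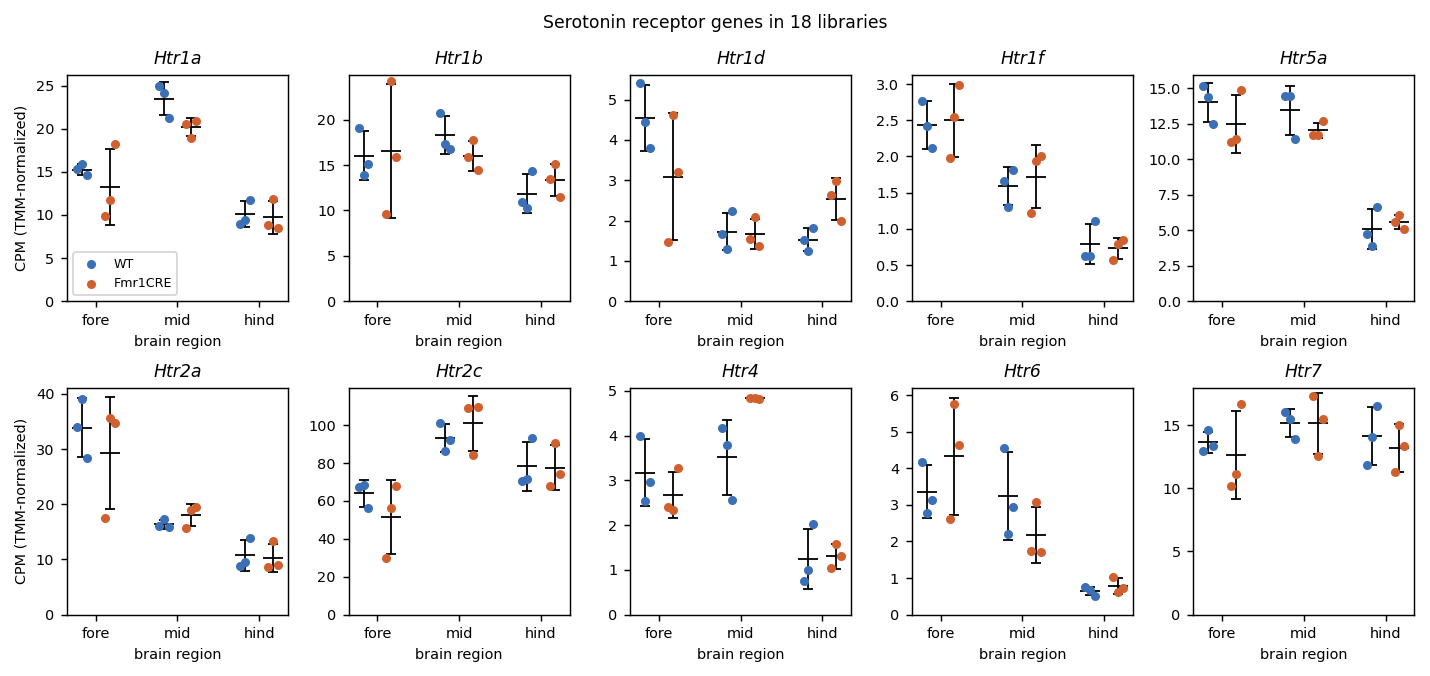
Each point is the CPM of a receptor gene in 1 library (y axis, from 0), by region (x axis) and genotype (blue WT, orange Fmr1CRE), with the mean and SD of 3 mice in black. Htr1f, Htr5a, Htr2a, Htr4 and Htr6 have all hindbrain points below those of both other regions, Htr2c has its lowest point in Fmr1CRE forebrain, and Htr7 is level across regions.

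Of 8 genes that mark serotonin neurons, 7 were lower in forebrain than in hindbrain (25.3% of all genes) and 7 lower than in midbrain (9.96%). The eighth, Gata2, did not pass in either (log2 fold changes of 0.49 and -0.12). Slc6a4, the serotonin transporter, was at 0 to 0.132 CPM in forebrain, 6.33 to 18.4 in midbrain and 3.45 to 10.4 in hindbrain, and Tph2, the rate-limiting enzyme of neuronal serotonin synthesis, at 1.36 to 3.43, 8.95 to 32.9 and 8.21 to 23.4. Their forebrain levels were below both other regions without overlap. Slc6a4 had 0 to 3 counts in a forebrain library and 167 to 537 in a midbrain library, a difference that passed (adjusted p = 9.96e-08). Forebrain against midbrain was -3.87 ± 0.41 for Slc18a2, the vesicular monoamine transporter (adjusted p = 1.24e-05), and -3.57 ± 0.32 for Tph2 (adjusted p = 2.34e-06). Of 11 genes for the synthesis, transport and breakdown of serotonin, 7 were lower and none higher in forebrain than in midbrain, where 9.96% and 9.38% of all genes were. All 8 serotonergic neuron markers summed to 6.79 to 12.0 CPM in forebrain, 47.2 to 134 in midbrain and 29.8 to 84.9 in hindbrain, with overlap between midbrain and hindbrain. Slc18a2, at 17.7 to 42.3 CPM, and Gata3, at 6.61 to 33.8, made up part of the midbrain sum. Whether all of this RNA came from serotonin neurons was not tested. A list of 10 hippocampal markers summed to 231 to 378 CPM in midbrain, above both forebrain (143 to 206) and hindbrain (184 to 224) without overlap. Much of the hindbrain sum was Cabp7, at 127 to 148 CPM there, 85.0 to 130 in midbrain and 25.9 to 51.3 in forebrain. The gap between midbrain and forebrain also rested on Cabp7. It gave 89.1 of the 231 CPM in midbrain WT replicate 3 and 44.4 of the 206 in forebrain Fmr1CRE replicate 3, and without it these sums overlap. By the test 4 of the 10 were lower and none higher in forebrain than in midbrain (9.96% and 9.38% of all genes). Between midbrain and hindbrain 8 were higher and 1 lower in midbrain (25.1% and 24%). The part of either list in the Htr1a level was not tested.

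Most signalling genes of the pathway were lower in hindbrain. Among 48 genes of the wider pathway, the other receptors included, 46 were tested; 29 were higher and 12 lower in forebrain than in hindbrain, where 26.4% and 25.3% of all genes were. Between forebrain and midbrain 5 were higher and 13 lower in forebrain (9.38% and 9.96% of all genes), and 32 were higher and 4 lower in midbrain than in hindbrain (25.1% and 24%). The 23 G protein and effector genes accounted for 17 of the 29 and 18 of the 32. Their median log2 fold change was 0.98 for forebrain against hindbrain and 0.89 for midbrain against hindbrain, beside -0.01 and -0.03 over all genes. Between midbrain and hindbrain, the called pathway genes with the largest changes were Kcnj6, a potassium channel subunit opened by Gi/o receptors (2.17 ± 0.17 for midbrain against hindbrain, adjusted p = 7.02e-08), Gprin1, which encodes a protein that binds Gi/o alpha subunits (1.89 ± 0.15, adjusted p = 4.86e-08), and Kcnj5, of the same channel family (1.68 ± 0.22, adjusted p = 1.61e-05). Of the 10 receptor partners, 8 were higher in forebrain than in hindbrain (26.4% of all genes), Adar and Adarb1 among them, and 1 was not called. The other, S100a10, was lower in forebrain (25.3% of all genes), at 12.3 to 17.7 CPM against 29.5 to 37.0 in hindbrain.

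The genes most like each receptor were sought by the correlation of log2 CPM over the 18 libraries, which share mice and dissections. Among 14501 or 14502 genes with a mean log2 CPM of at least 1, Htr1a was closest to Scamp5 (Pearson r = 0.9746) and Crim1 (0.966), Htr2a to Snx7 (0.977) and Gcnt2 (0.967), Htr5a to Nrg3 (0.985) and Reps2 (0.984), and Htr1f to Nap1l1 (0.968) and Prkar2b (0.966). Htr4 was closest to Rapgef5 (0.956) and Ss18l1 (0.954), and Htr6 to Jph4 (0.952) and Baiap2 (0.951). The nearest genes were less alike for 3 receptors: Htr1d with Cop1 (0.887) and Erg (0.865), Htr7 with Rgs17 (0.867) and Minar2 (0.855), and Htr1b with Trappc10 (0.857) and Hmbox1 (0.846). Differences between region means made up 90.9% of the sum of squares of log2 CPM for Htr5a, 31.6% for Htr1b and 18.0% for Htr7.

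Within regions most pairs of receptors correlated positively. After the mean of each region was removed, the Pearson r of log2 CPM over the 45 pairs of receptors had a median of 0.495 and ran from -0.269, for Htr6 with Htr7, to 0.851, over 18 libraries that share mice and dissections. Fmr1CRE replicate 1 of the forebrain had the lowest value of the 6 forebrain libraries for 9 of the 10 receptors, Htr4 being the exception. The same library had the lowest sum of 10 striatal markers, 810 CPM against 1365 to 2097 in the other 5 forebrain libraries, and the lowest of 10 hypothalamic markers, 8.76 CPM against 18.2 to 109. Their part in the low receptor levels was not tested. Neither the pair correlations nor the count of 9 receptors was set beside values of other genes, so neither can be read as particular to the receptors.

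**Figure D4:**
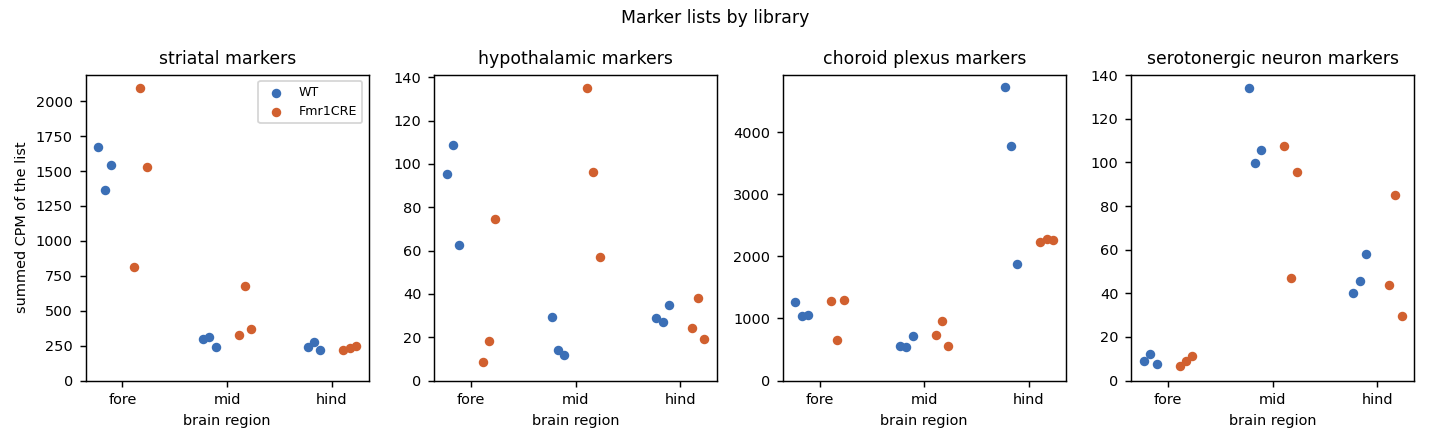
Summed CPM of 4 marker lists (y axes, from 0) in each library, by region (x axis) and genotype (blue WT, orange Fmr1CRE), 3 mice per group. The lowest forebrain point of the striatal and of the hypothalamic list is Fmr1CRE replicate 1, and in midbrain the 3 Fmr1CRE points of the hypothalamic list lie above the 3 WT points.

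No receptor gene passed the test between Fmr1CRE and WT in any region. With edgeR on the 6 libraries of a region, 0 of 10 passed an adjusted p of 0.05 in forebrain, midbrain and hindbrain, where 0% of 18467, 0.00543% of 18400 and 0% of 19112 genes passed. At an unadjusted p under 0.05, 1 receptor, Htr1d, passed in hindbrain and 0 in each of the others, where 5.13% of all genes passed in hindbrain, 5.43% in forebrain and 6.17% in midbrain. DESeq2 also called 0 of 10 in each region. The interaction of genotype and region was called for 0 of 10 receptors, with 0% of all genes called. At an unadjusted p under 0.05 it was met by Htr1d (edgeR, adjusted p = 0.66) and by 7.54% of all genes. Without both mice of replicate 3 the interaction was still called for 0 of 10 receptors, but for 131 of 20602 genes.

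The intervals show what size of difference these 3 mice per group could have missed. Over the 10 receptors, the 95% intervals of the log2 fold change together spanned -1.42 to 1.13 for forebrain, -1.36 to 0.95 for midbrain and -0.94 to 1.35 for hindbrain. Htr2c, the most abundant receptor, had narrower bounds outside forebrain. In midbrain it was at 109, 84.3 and 110 CPM in Fmr1CRE and 101, 86.1 and 92.2 in WT, which overlap, at a log2 fold change of 0.12 (interval -0.18 to 0.41). In hindbrain it was at 68.0, 90.6 and 74.1 CPM in Fmr1CRE and 70.4, 71.3 and 93.0 in WT, at -0.02 with an interval from -0.37 to 0.33.

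In forebrain, the genotype values of Htr2c and Htr2a moved toward or past 0 without 1 library. Htr2c was at 29.8, 56.3 and 67.9 CPM in Fmr1CRE forebrain and 67.2, 68.7 and 56.0 in WT forebrain, and Htr2a at 17.5, 35.6 and 34.8 against 34.1, 39.2 and 28.4. In both, the first Fmr1CRE mouse was alone at the bottom and the others mingled. The log2 fold change of Htr2c was -0.30 ± 0.26 (adjusted p = 0.829) and -0.03 without that mouse, and -0.61 without both mice of replicate 3 (adjusted p = 0.417). That of Htr2a was -0.19 ± 0.26 (adjusted p = 0.875) and 0.07 without Fmr1CRE replicate 1. Htr1b, at 9.59, 24.2 and 15.9 CPM in Fmr1CRE and 19.1, 13.9 and 15.1 in WT, had both its lowest and its highest forebrain value among the mutants.

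Groups did not overlap for 2 receptors in midbrain, 1 in hindbrain and 0 in forebrain, where 11.3%, 10.9% and 10.2% of all genes tested had such groups. Htr4 in midbrain was at 4.84, 4.85 and 4.81 CPM in Fmr1CRE and 4.18, 3.79 and 2.57 in WT, all mutants higher, with a log2 fold change of 0.47 ± 0.21 (edgeR, adjusted p = 0.806). Htr1a in midbrain was at 20.5, 19.0 and 20.9 CPM in Fmr1CRE and 24.996, 24.1 and 21.3 in WT, all mutants lower, at -0.22 ± 0.11 (adjusted p = 0.814). Htr1d in hindbrain was at 2.63, 2.99 and 1.98 CPM in Fmr1CRE and 1.52, 1.25 and 1.82 in WT, all mutants higher, at 0.72 ± 0.27 (edgeR, adjusted p = 0.875), and at 0.9989 without both mice of replicate 3 (adjusted p = 0.333). In midbrain the hypothalamic markers summed to 56.8 to 135 CPM in Fmr1CRE and 11.7 to 29.4 in WT, and the striatal markers to 328 to 674 and 239 to 312, each without overlap; their part in the Htr4 and Htr1a values was not tested.

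**Figure D5:**
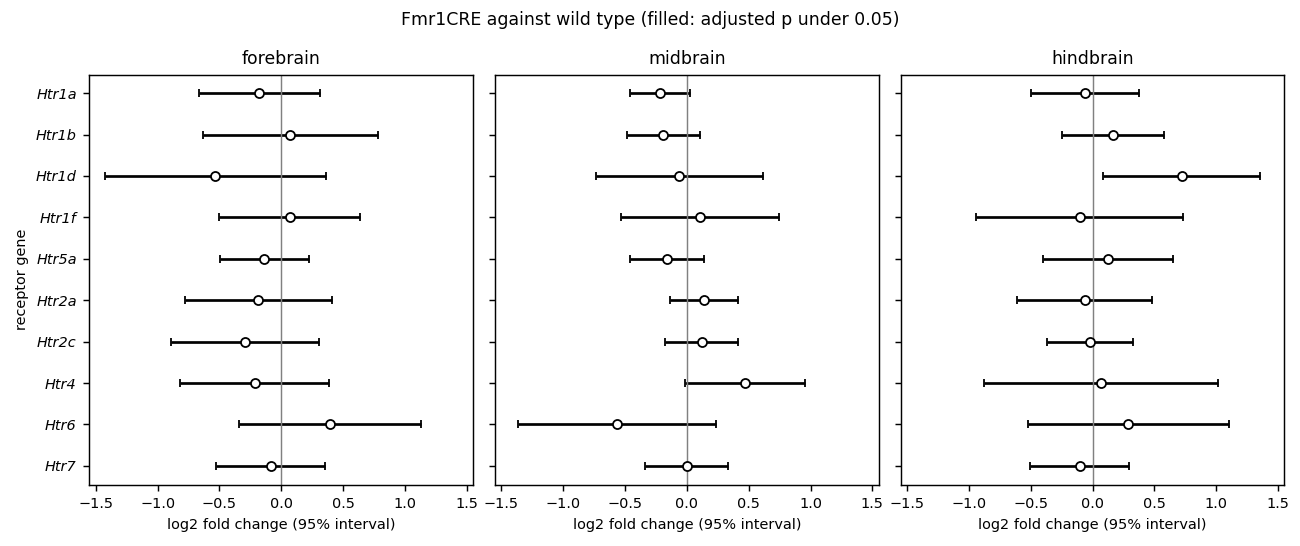
Log2 fold changes of the 10 receptor genes between Fmr1CRE and WT (x axis) in each region, 3 mice per genotype, with 95% intervals from edgeR; filled points would mark an adjusted p under 0.05. All points are open, and Htr1d in hindbrain, at 0.72, is the one whose interval leaves out 0.

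The wider pathway list, the other receptors included, was also tested between genotypes. Of 45 pathway genes tested in each region, 0 were called by edgeR, with an unadjusted p under 0.05 for 5 in hindbrain (5.13% of all genes), 2 in midbrain (6.17%) and 1 in forebrain (5.43%). DESeq2, which called 60 of 19106 genes in hindbrain, called 1 pathway gene, Gnao1, the alpha subunit of the G protein Go, as higher in Fmr1CRE hindbrain (log2 fold change 0.56, adjusted p = 0.00378). The median log2 fold change of the pathway list was -0.11, -0.08 and 0.06, in forebrain, midbrain and hindbrain, beside 0.001, -0.005 and -0.009 over all genes tested. Tph2 in midbrain and hindbrain, and Slc6a4 in both, had adjusted p-values between 0.831 and 0.998.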

How the data were processed

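Gene counts were the authors' deposited whole-number counts per Ensembl gene for 18 libraries of 3 regions and 6 mice, made from poly(A) RNA and single-end 50-base reads; the submitters' processing notes name Salmon 0.14.0, DESeq2 1.30.1 and mm10, and the methods name the bcbio_nextgen pipeline. The authors' deposited per-library Salmon files hold estimated counts per transcript (expected counts) and effective lengths. Their names disagree with the sample records, so they were pooled over all 18 sets and used only for transcript shares and gene lengths. The deposited log2-like variance-stabilized table was not used here, since the copy at hand held none of the receptor genes. Libraries were run in 2 pools whose members are not named, so a pool effect cannot be told apart.

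Region contrasts used 1 edgeR 4.0.16 quasi-likelihood fit of the 6 groups (R 4.3.3, TMM, filterByExpr); genotypes were compared within each region, and adjusted p under 0.05 was the threshold. DESeq2 1.42.0 was an alternative. CPM are TMM-normalized, and TPM use gene counts over pooled effective lengths. The fits were tested on simulated data. Regions of a mouse come from the same animal; their deviations from group means correlated at -0.17 to 0.18, and a mouse block was an alternative fit. Mice of 1 litter are the replicates. Members, gene lists and comparisons were chosen with earlier results of these data known. Named genes were the 10 receptors, the 4 other receptors, Tph2, Slc6a4, up to 3 pathway genes per comparison with the largest called change, and the 2 genes most correlated with each receptor; other genes were named after their values were seen.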

Additional observations from a re-analysis of the deposited data

Results flagged for a closer look

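Of 36 sets of 6 libraries tested (12 receptor genes in 3 regions), 1 had an extreme value too far from the rest by Dixon's test, Htr2c in forebrain. There Fmr1CRE replicate 1 was at 4.90 log2 CPM, the next forebrain library at 5.81, and the gap was 0.756 of the whole range. Chance flags about 1 set in 20, so 1 flag among 36 sets is no more than chance alone would give. The sets also share libraries. No receptor had all mutants higher in 1 region and all lower in another.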

How the results depend on the processing

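Of 1390 recomputed values, 1260 kept their direction and side of the threshold, 55 changed sign, 30 lost a call, 8 gained one and 37 moved. Those that moved included all 30 TPM medians of single receptors. With annotated transcript lengths each shifted by at least the SD of its libraries. All 10 receptors stayed uncalled between genotypes under every alternative run, DESeq2 included. Leaving out 1 mouse at a time gave 7 to 9 called receptors for forebrain against hindbrain, 4 to 6 for forebrain against midbrain and 6 to 8 for midbrain against hindbrain. In Fmr1CRE libraries alone the called receptors numbered 5, 0 and 5, and the called pathway genes 5 for forebrain against midbrain and 23 for midbrain against hindbrain, with 6178, 527 and 4847 of 19434 genes called in all. WT libraries alone, a fit of the same size, called 7, 4 and 7 receptors and 8298, 1729 and 7490 of 19442 genes; the cause was not tested. Without both replicate 3 mice the receptor counts were 7, 4 and 6. DESeq2 called 1 pathway gene between genotypes in hindbrain. Neighbouring levels without overlap numbered 9 with annotated transcript lengths and 8 as CPM per kilobase, an alternative chosen after seeing the data. With the mouse as a replicate block the called receptors were 8, 5 and 7, with Htr1f gained between forebrain and midbrain, and no other receptor call among the 10 changed. Between genotypes a replicate number is only a shared number (correlations of -0.12 to 0.07), and with it as a block 0 receptors were called in each region.

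Some values changed sign, and the cause was not tested. For forebrain against midbrain Htr5a was -0.00066 with total counts alone, and Htr1b was 0.049 in Fmr1CRE libraries. For midbrain against hindbrain Htr1d was 0.17 in WT libraries. Between genotypes in forebrain, Htr1b was -0.0024 with the replicate block. In midbrain, Htr7 was 0.031 with total counts and 0.00047 with no filter, and Htr5b -0.013 with the replicate block.

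With 1 mouse left out at a time, or both replicate 3 mice, signs also changed for Htr7 in forebrain against hindbrain (-0.18 to 0.049), and for Htr1b (-0.22 to 0.064) and Htr5a (-0.012 to 0.083) in forebrain against midbrain. Between genotypes in forebrain this held for Htr1b (-0.31 to 0.34), Htr1f (-0.15 to 0.19), Htr2a (-0.42 to 0.065), Htr7 (-0.32 to 0.031) and Htr5b (-0.25 to 0.14). In midbrain it held for Htr1d (-0.25 to 0.31), Htr1f (-0.016 to 0.30), Htr7 (-0.12 to 0.12), Htr3a (-0.52 to 0.11) and Htr5b (-0.24 to 0.15). In hindbrain it held for Htr1a (-0.22 to 0.14), Htr1f (-0.25 to 0.20), Htr5a (-0.032 to 0.41), Htr2a (-0.28 to 0.24), Htr2c (-0.14 to 0.14), Htr4 (-0.19 to 0.57), Htr7 (-0.21 to 0.014) and Htr3a (-0.24 to 0.044). Htr1f (16 to 28) and Htr6 (13 to 29) had under 30 counts in every hindbrain library, and Htr4 (20 to 51) in some. This limits what their intervals there can show.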
